A study of Mus musculus with 12 samples.

Results

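Pancreatic tumours of 1 line were divided by how much of each library came from the digestive enzyme genes of acinar cells, so the members were chosen by measured values, the enzyme counts. A tumour was called acinar-rich where these genes held over 15% of its raw counts, which gave 5 acinar-rich tumours of 12 in all, and acinar-poor otherwise, which gave 7. The tumours grew from PDA.69, a pancreatic ductal adenocarcinoma (PDAC) cell line derived from the KPC mouse model and labelled T cell low, so every tumour shares 1 line. The hosts were 6 WT mice and 6 mice labelled Alb-Cre+/+ STAT3f/f, in which an albumin promoter drives Cre, so that the floxed Stat3 allele is deleted in hepatocytes of the host and not in the implanted cells. The acinar-rich tumours were WT 5 plus Alb-Cre Stat3f/f 1 to 4, and the acinar-poor ones were Alb-Cre Stat3f/f 5 and 6 together with WT 1, 2, 3, 4 and 6. Host age, sex, site of implantation, date and batch are not in the labels. RNA came from scraped slides of formalin-fixed, paraffin-embedded tissue and was made into 3' tag libraries, 1 per tumour. The labels do not say that each tumour came from its own mouse, so a p-value below reflects only how much these samples vary.

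Acinar cells make and store digestive enzymes as zymogens and release them into ducts, and their endoplasmic reticulum (ER) is built for this secretory load. The PTF1 complex, with the helix-loop-helix factor Ptf1a, switches enzyme genes on through a paired E-box and TTTCCC box, while Bhlha15 (Mist1) and Xbp1 support the secretory state. Islets, blood and lymph vessels, fat and lymphoid tissue lie between the acini of a normal pancreas, so a section that holds adjacent pancreas can hold RNA of each.

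Because the enzyme genes chose the classes, their values are a description without a test. The enzyme share was 24.2% in WT 5 and 28.7, 43.6, 47.6 and 31.96% in Alb-Cre Stat3f/f 1 to 4. In the acinar-poor tumours it was 10.3, 3.27, 5.28, 2.48 and 0.610% in WT 1, 2, 3, 4 and 6, while Alb-Cre Stat3f/f 5 and 6 had 0.847 and 14.4%. The tumours nearest the 15% line were WT 5 inside and Alb-Cre Stat3f/f 6 outside, and a line at 20% gave the same classes. The class was uneven across genotypes, with 4 of 6 tumours acinar-rich in Alb-Cre Stat3f/f hosts and 1 of 6 in WT hosts, so genotype was a term in every comparison below unless stated otherwise.

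**Figure D1:**
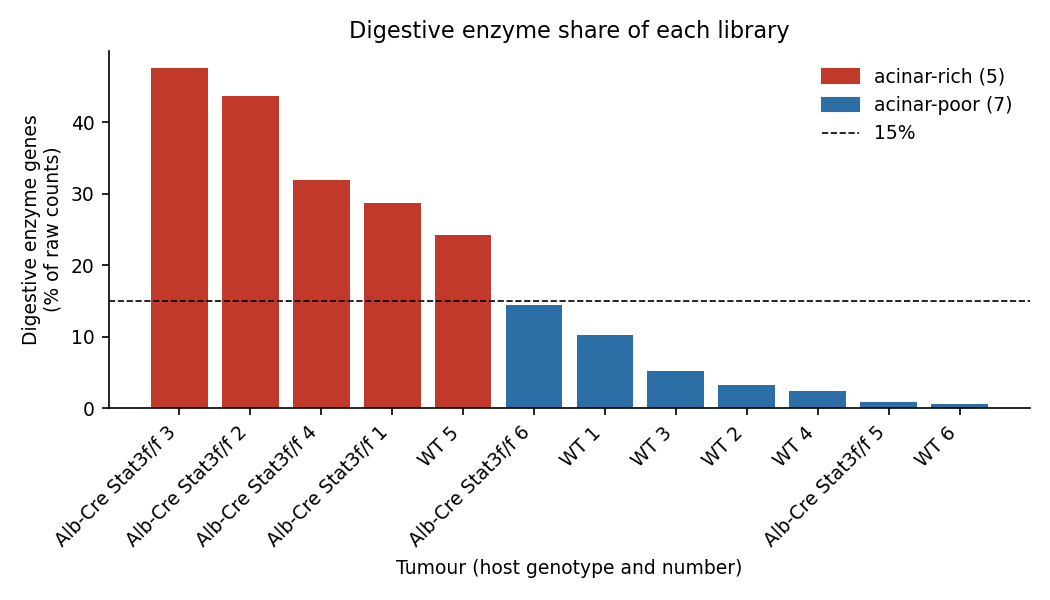
Share of raw counts held by digestive enzyme genes (vertical axis, percent) in each of the 12 tumours, ordered by that share, with 1 bar per tumour. The 5 acinar-rich tumours (red) run from 24.2 to 47.6% and the 7 acinar-poor ones (blue) from 0.610 to 14.4%, and the dashed line marks 15%.

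The 3 marker genes were present in every tumour, acinar-poor ones included. Levels are TMM-normalised CPM (a gene's counts scaled to a common library size), and values of the acinar-rich tumours are given in the order WT 5, then Alb-Cre Stat3f/f 1, 2, 3 and 4. Prss2, a trypsinogen, was at 17060, 23132, 46060, 78433 and 22916 CPM in the acinar-rich tumours, and in the acinar-poor tumours it ran from 316 CPM (WT 6) through a median of 2141 to 8631 CPM (Alb-Cre Stat3f/f 6). Cpa1, carboxypeptidase A1, was at 16914, 19913, 42418, 62057 and 30989 CPM against 303, 1428 and 7999 CPM (lowest, median and highest acinar-poor tumour). Cela1, an elastase, was at 19740, 24591, 83488, 43537 and 42521 CPM against 183, 2142 and 10614 CPM. No marker's range overlapped between the classes, which the rule itself favours, because all 3 are among the enzyme genes that set the classes. The label is a matter of degree, since the acinar-poor tumours also held acinar RNA. Of 33 enzyme genes listed, 32 were in the table and 25 passed the filter on low counts, and the median log2 fold change of these 25 was 3.03.

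The E-box and TTTCCC box of PTF1 are shown for 2 enzyme genes in which both lie close together. The sequences are from the RefSeq promoter table (build GRCm38.p6, 250 bases before to 50 bases after a gene start), printed 5′ to 3′ on the gene's strand, with both boxes in capitals.
Cela1 (chr15:100687994-100688049, minus strand): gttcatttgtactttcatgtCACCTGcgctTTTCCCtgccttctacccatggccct
Ctrb1 (chr8:111691180-111691235, minus strand): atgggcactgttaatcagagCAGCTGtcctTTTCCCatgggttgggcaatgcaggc
A window with CACCTG or CAGCTG together with TTTCCC, on either strand and at any spacing, was found in 11 of 28 enzyme gene promoters (39.3%) and in 2682 of all 32851 promoter windows (8.16%). In both sequences shown the 2 boxes span 16 bases. Ctrb1, a chymotrypsinogen, was at 60404, 81447, 99668, 147580 and 65910 CPM in the acinar-rich tumours, against 1684 to 32414 CPM in the acinar-poor ones.

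Library totals ran from 5691707 to 8085609 counts and did not separate the classes (difference within genotype, exact two-sided permutation test over 90 relabellings, p = 0.533, adjusted p = 0.667). The share of ribosomal Rn45s was 3.85% ± 1.05 (SD, n = 5) in acinar-rich and 4.07% ± 0.824 (SD, n = 7) in acinar-poor tumours (exact permutation p = 0.833, adjusted p = 0.833). The counts left outside the enzyme genes ranged from 3662003 to 5314394 in acinar-rich and from 5657007 to 6810391 in acinar-poor tumours, so low genes were measured at less depth where acinar RNA was abundant. In bulk tissue, fewer cells of a type and less RNA per cell cannot be told apart.

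Across 13077 tested genes, few passed the test, and those that did were mostly higher in the acinar-rich tumours. With edgeR's quasi-likelihood test and Benjamini-Hochberg adjustment at 0.05, 26 genes (0.199%) were higher and 3 (0.0229%) were lower, while 1745 (13.3%) had an unadjusted p under 0.05. Every acinar-rich tumour lay above every acinar-poor one for 280 genes (2.14%) and below for 142 (1.09%). None of the 26 was an enzyme gene: the 25 tested enzyme genes separated the classes, varied widely within the acinar-poor class, and were not called. The calls rested on Alb-Cre Stat3f/f 5, 1 of the 2 acinar-poor tumours of its genotype. Without it 0 genes were called by the same edgeR test, with 909 at an unadjusted p under 0.05, and the 20 called genes named in the text kept their signs with adjusted p from 0.0794 to 0.400. Leaving out WT 1 or Alb-Cre Stat3f/f 4 raised the counts to 95 and 101 higher and to 17 and 47 lower, and leaving out WT 5 cut them to 11 higher and 1 lower.

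**Figure D2:**
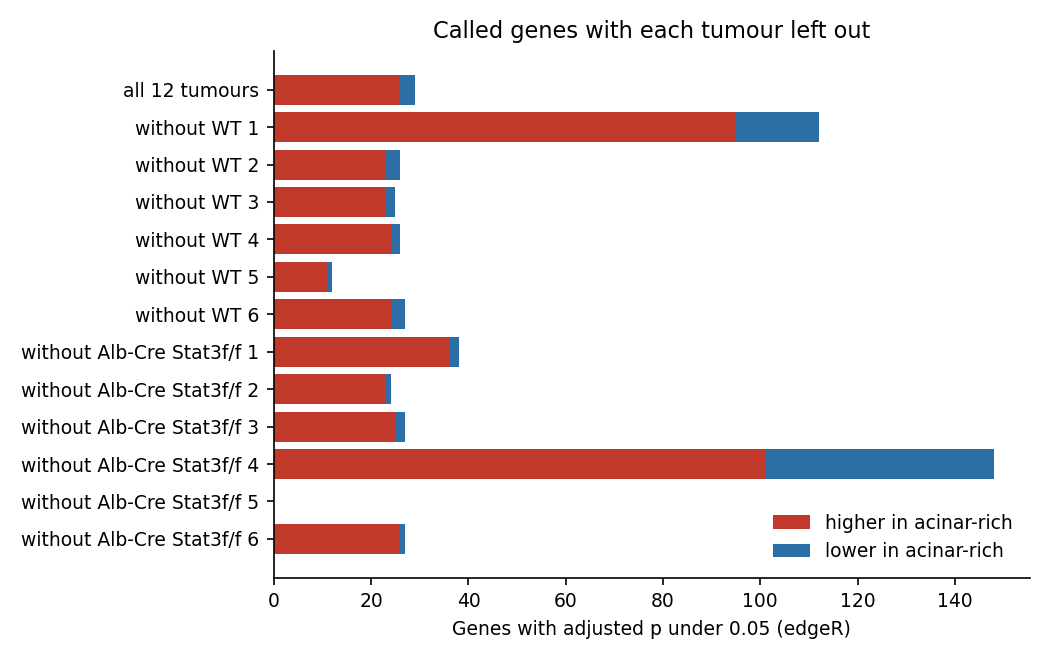
Genes past an adjusted p of 0.05 (horizontal axis, edgeR) with all 12 tumours and with each tumour left out, as stacked bars of genes higher (red) and lower (blue) in acinar-rich tumours. The total falls from 29 genes with all tumours to 0 without Alb-Cre Stat3f/f 5.

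A class hides the spread of acinar RNA inside each group, so the log2 enzyme share was also fitted as a continuous term with genotype. This fit called 290 genes (2.22%) that rose with the share and 76 (0.581%) that fell, and 20 of the 29 genes called between the classes were among them. DESeq2 with the class and genotype called 279 genes higher (2.13%) and 58 lower (0.444%). The number of list members called depends on which of these fits is read. Below, "called" without a named tool means the edgeR fit between classes, and the calls of the continuous fit and of DESeq2 are given beside it.

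Other genes made by acinar cells are not independent of the rule, and they are described on the same terms as the enzymes. The list of granule and secretory cell genes had 19 tested members with a median log2 fold change of 2.35, and all 19 had a positive one. Gp2, a zymogen granule membrane protein, was at 1647, 2522, 4240, 6344 and 2120 CPM in the acinar-rich tumours and at 69.3 to 797 CPM in the acinar-poor ones. Zg16, a lectin of the granule, was at 2621, 3745, 13370, 9170 and 5739 CPM against 48.0 to 1582 CPM. Both genes were higher in each acinar-rich tumour than in any acinar-poor tumour.

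Nucb2, a calcium-binding protein of the secretory pathway, and Fkbp11, a peptidyl-prolyl isomerase of the ER, were the 2 members of that list that were called, and both belong to acinar secretion by the choice of the list. Their calls are therefore a description and no test. Nucb2 was at 122, 155, 213, 249 and 175 CPM, against 58.8, 67.4 and 81.9 CPM (lowest, median and highest acinar-poor tumour), a log2 fold change of 1.20 ± 0.15 (SE). Fkbp11 was at 50.4, 67.8, 124, 94.7 and 85.0 CPM against 24.5, 28.4 and 34.2 CPM, a log2 fold change of 1.33 ± 0.20. Unlike the enzymes, both were nearly level among the acinar-poor tumours while the enzyme share there ran from 0.610 to 14.4%.

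The 8 acinar transcription factors had a median log2 fold change of 1.40 and the 6 tested regenerating (Reg) genes one of 2.99, with none called in either list by edgeR. DESeq2 called 3 of the 8 and 6 of the 6, and the continuous fit 6 and 5. Because the classes and the share were set by acinar RNA, these counts describe acinar genes and are no test of them. Ptf1a was at 4.09, 7.04, 13.8, 19.7 and 0.751 CPM, and the acinar-poor tumours ran from 0 to 3.42 CPM, so Alb-Cre Stat3f/f 4 lay inside the acinar-poor range despite an enzyme share of 31.96%. Bhlha15 was at 11.6, 19.2, 49.2, 53.8 and 23.7 CPM against 1.25 to 11.7 CPM. Xbp1, the transcription factor of the unfolded protein response, was at 149, 246, 300, 314 and 170 CPM against 59.1 to 123 CPM. Foxa3, a forkhead factor of gut endoderm, was at 14.2, 22.0, 28.2, 37.1 and 14.9 CPM against 5.06 to 11.6 CPM (log2 fold change 1.46 ± 0.31). Reg1, a secreted lectin of acinar cells, was at 4476, 6634, 12712, 16650 and 5497 CPM against 156 to 2005 CPM. Reg3a and Reg3d, lectins that rise in injured or inflamed pancreas, were highest in Alb-Cre Stat3f/f 3 at 8197 and 1452 CPM, and their highest acinar-poor values, 1185 and 140 CPM, were both in WT 1 and not in Alb-Cre Stat3f/f 6.

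The secretory machinery outside the acinar granule had mostly positive values, of which few were called. Acinar cells also make this machinery, and acinar RNA set the classes. The calls and p-values of these genes, here and in the next paragraph, are therefore a description and no independent test. Among ER chaperones and genes of the unfolded protein response, 21 of 27 tested members had a positive log2 fold change, 2 rose and none fell, with a median of 0.35, against −0.01 for all tested genes. Among genes of ER translocation and the early secretory pathway 30 of 34 were positive, 1 rose and none fell, with a median of 0.25. With the continuous share 8 and 5 members were called, and by DESeq2 9 and 7, all higher. The summed level of the ER chaperone list was 5860 to 7547 CPM in acinar-rich and 4443 to 5787 CPM in acinar-poor tumours, without overlap.

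Derl3, a channel component of ER-associated degradation found in secretory cells, was at 10.95, 16.7, 35.9, 45.2 and 14.9 CPM in the acinar-rich tumours and at 2.43, 3.55 and 5.83 CPM (lowest, median, highest) in the acinar-poor ones. Its log2 fold change was 2.33 ± 0.41 (edgeR adjusted p = 0.0220). Dnajc3, a co-chaperone in the ER lumen that restrains the stress kinase PERK, was at 212, 240, 334, 406 and 280 CPM against 105, 146 and 164 CPM. Its log2 fold change was 0.96 ± 0.17 (edgeR adjusted p = 0.0171). Neither gene's ranges overlapped, and Derl3, which plasma cells also make, was the 1 called gene of 5 tested in the plasma cell list. Sec11c, a catalytic subunit of the signal peptidase, was at 80.4, 84.3, 122, 103 and 90.9 CPM against 46.7, 56.1 and 72.3 CPM, with a log2 fold change of 0.74 ± 0.15 (edgeR adjusted p = 0.0377). Srpr, a receptor subunit for the signal recognition particle, was at 32.4 to 51.6 CPM against 23.1 to 28.9 CPM and was not called (edgeR adjusted p = 0.0638). In contrast Hspa5 (BiP), the main ER chaperone, was at 962, 1237, 1080, 964 and 936 CPM against 807, 1007 and 1198 CPM. Its ranges overlapped, and its log2 fold change was 0.05 with a 95% interval from −0.21 to 0.31 (edgeR adjusted p = 0.916). Leaving out Alb-Cre Stat3f/f 6 raised the adjusted p of Derl3, Dnajc3 and Sec11c above 0.05. The Derl3 call was also lost when Alb-Cre Stat3f/f 5, WT 2 or WT 5 was left out, and Sec11c was called in 4 of the 12 fits that left out a tumour.

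Derl3, Dnajc3 and Hspa5 share the ER stress response element in the promoter, and the 3 sequences are shown because their genes differed in response. The element is CCAAT, then any 9 bases, then CCACG, the target of ATF6 with NF-Y, given in capitals on whichever strand it lies. Sequences are from the same RefSeq table and build.
Derl3 (chr10:75893222-75893280, plus strand): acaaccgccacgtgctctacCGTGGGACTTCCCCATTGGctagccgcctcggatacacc
Dnajc3 (chr14:118937807-118937865, plus strand): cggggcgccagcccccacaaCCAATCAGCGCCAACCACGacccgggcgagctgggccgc
Hspa5 (chr2:34772005-34772063, plus strand): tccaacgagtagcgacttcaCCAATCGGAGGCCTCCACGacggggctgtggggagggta
The element was in 9 of the 25 promoter windows that matched the ER chaperone list (36.0%) and in 39 of all 32851 windows (0.119%). The 9 genes were Calr, Canx, Creld2, Derl3, Dnajc3, Hsp90b1, Hspa5, Pdia6 and Syvn1, and their log2 fold changes ran from −0.11 for Calr to 2.33 for Derl3, so genes with these letters were both called and not called.

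Islet hormones had positive values in the acinar-rich tumours, and 3 of 7 separated the classes, against 2.14% of all tested genes that did so upward. All 7 tested hormones had a positive log2 fold change, with a median of 2.43, and none was called by edgeR, while the continuous fit called 3 and DESeq2 6. Of the 7, 2 reached the filter's level of about 10 counts in too few acinar-poor tumours. They passed the filter only with the acinar-rich tumours counted, which favours a positive sign. Ins2, an insulin, was at 560, 131, 658, 386 and 167 CPM in the acinar-rich tumours and at 10.3, 28.4 and 133 CPM (lowest, median and highest) in the acinar-poor ones. The highest acinar-poor value, in Alb-Cre Stat3f/f 6, exceeded that of Alb-Cre Stat3f/f 1. Ins1, the other mouse insulin, overlapped in the same way, at 45.6 to 241 CPM against 4.62 to 49.7 CPM.

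Gcg, glucagon of alpha cells, was at 147, 54.4, 229, 168 and 64.4 CPM against 12.2, 24.4 and 39.2 CPM, with no overlap (log2 fold change 2.43 ± 0.50, edgeR adjusted p = 0.111). Sst, somatostatin of delta cells, was at 5.89 to 19.4 CPM against 0.693 to 5.07 CPM, also without overlap. Ppy, pancreatic polypeptide, was at 0.704 CPM in Alb-Cre Stat3f/f 1, under the lowest acinar-poor tumour, and at 7.71 CPM in Alb-Cre Stat3f/f 3. The order of tumours differed from that of the enzymes: WT 5, lowest of the acinar-rich tumours in enzyme share, was second in Ins2, and Alb-Cre Stat3f/f 1 was lowest of the 5 in Ins2 and Gcg.

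Of 30 listed genes of endocrine granules and islet identity 15 were tested, and 11 of these had a positive log2 fold change. The median was 1.20, and 1 was called by edgeR, 2 in the continuous fit and 4 by DESeq2. Of the 15, 7 passed the filter only with the acinar-rich tumours counted, which favours a positive sign, and Scg2 and Ptprn2 were among them. The summed level of that list overlapped, at 1771 to 2191 CPM against 1423 to 2049 CPM. Scg2, secretogranin II of neuroendocrine granules, was at 12.6, 2.29, 14.9, 4.71 and 6.01 CPM against 0.473, 1.36 and 2.28 CPM, a log2 fold change of 2.54 ± 0.48 (edgeR adjusted p = 0.0220). Its lowest acinar-rich and highest acinar-poor values nearly touched, and the call was lost when WT 3, WT 5, Alb-Cre Stat3f/f 2 or Alb-Cre Stat3f/f 5 was left out. Ptprn2, a phosphatase-like protein of insulin granules, was at 4.58, 7.57, 24.0, 14.8 and 9.76 CPM against 0.137 to 2.91 CPM and was not called between classes (edgeR adjusted p = 0.0740), but was called with the continuous share (log2 change 3.42 ± 0.44 over the 10.7-fold difference of the classes' mean shares, edgeR adjusted p = 3.09e-05).

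Amino acid and creatine metabolism genes of the exocrine pancreas had 18 tested members, of which 15 had a positive log2 fold change (median 1.02), and none was called between classes by edgeR, 4 by DESeq2 and 6 with the continuous share. Of the 18, 4 passed the filter only with the acinar-rich tumours counted. As genes of the exocrine pancreas they are not independent of the rule, so these counts and p-values are a description and no test. Slc7a8, an amino acid transporter, was at 16.5, 23.6, 57.6, 38.8 and 27.5 CPM against 2.19 to 12.2 CPM. Gatm, the first enzyme of creatine synthesis, was at 40.9, 64.6, 147, 96.6 and 35.7 CPM against 8.07 to 27.7 CPM. Both separated the classes. Asns, asparagine synthetase, overlapped, at 74.2 to 198 CPM against 18.3 to 88.6 CPM. DESeq2 called Slc7a8, Gatm and Asns (adjusted p = 0.00702, 0.00425 and 0.00243). The continuous share called Slc7a8 and Asns (edgeR adjusted p = 0.00640 and 0.000279) but not Gatm (edgeR adjusted p = 0.0711).

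**Figure D3:**
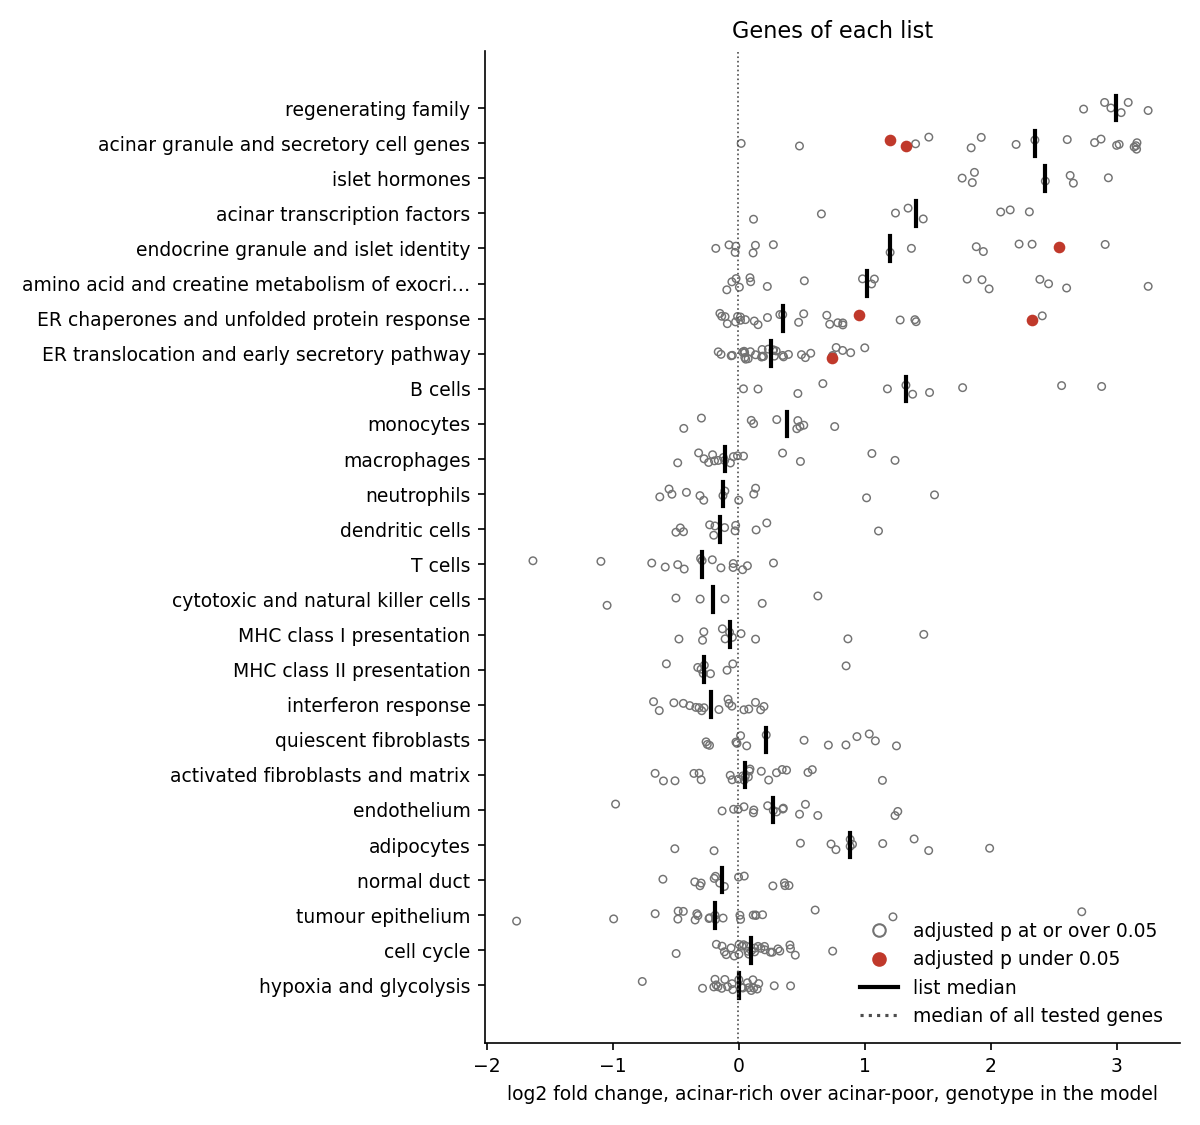
Log2 fold change of acinar-rich over acinar-poor tumours with genotype in the model (horizontal axis) for the tested genes of 26 lists, 1 circle per gene, filled where the adjusted p was under 0.05. Black bars are list medians, from 2.99 for the regenerating family to −0.29 for T cells, and the dotted line is the median of all tested genes (−0.01).

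The largest called changes, in Slc25a35 and Pbld1, lay outside the lists, and further called genes outside the lists follow. Which cells made them was not tested. Slc25a35, a mitochondrial carrier, was at 4.25, 8.80, 4.20, 6.43 and 2.70 CPM against 0.128, 0.277 and 1.62 CPM (log2 fold change 3.26 ± 0.62, edgeR adjusted p = 0.0220). Pbld1, a protein with a phenazine biosynthesis-like domain, was at 4.90, 5.81, 13.3, 13.1 and 4.05 CPM against 0.256, 0.710 and 1.65 CPM (log2 fold change 3.05 ± 0.50, edgeR adjusted p = 0.00715). Cldn10, a tight junction claudin, was at 13.4, 15.7, 39.4, 40.3 and 22.98 CPM against 1.11, 3.50 and 6.08 CPM (log2 fold change 2.42 ± 0.36, edgeR adjusted p = 0.00681). None of the 3 overlapped between the classes, and of the 12 fits that left out a tumour Cldn10 and Pbld1 were called in 10 and Slc25a35 in 9. Slc25a35 and Pbld1 passed the filter only with the acinar-rich tumours counted, which favours a positive sign.

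Gjb2 (connexin 26), a gap junction protein, rose by 2.09 ± 0.35 on the log2 scale, from 0.828 to 2.61 CPM in acinar-poor to 5.72 to 13.5 CPM in acinar-rich tumours. Ptger3, a prostaglandin E2 receptor, rose by 1.64 ± 0.29, from 5.41 to 12.04 CPM up to 13.97 to 45.2 CPM. Plcb4, a phospholipase C that acts downstream of Gq-coupled receptors, rose by 1.63 ± 0.29. Kif21a, a kinesin, and Map2, a microtubule-associated protein best known from neurons, rose by 1.63 ± 0.26 and 1.55 ± 0.25. Map2 was at 20.6, 23.8, 46.9, 37.5 and 24.6 CPM against 6.91, 9.43 and 12.3 CPM. Lrrc75b and the counts given to the small nucleolar RNA Snord55 rose by 2.07 ± 0.41 and 2.13 ± 0.43, from acinar-poor medians of 1.64 and 0.795 CPM. Whether reads of these 3' tag libraries at Snord55 came from the small RNA itself was not tested. Of the 12 fits that left out a tumour Lrrc75b was called in 7 and Snord55 in 4. Snord55 passed the filter only with the acinar-rich tumours counted, which favours a positive sign. For Snord55, Alb-Cre Stat3f/f 5 was the highest acinar-poor tumour at 2.43 CPM, so its order did not follow the enzyme share. The edgeR adjusted p of these 7 genes ran from 0.00681 for Kif21a and Map2 to 0.0363 for Snord55.

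Of 28 called genes with 1 position in the annotation, 2 lie within 100 kb of an enzyme, granule or Reg gene. Casp9, the initiator caspase of the mitochondrial death pathway (GRCm38 chr4:141793612-141815976, plus strand), overlaps the elastase gene Cela2a (chr4:141814962-141826160, minus strand) at their 3' ends, and the annotated span of the chymotrypsin C gene Ctrc (chr4:141814962-141846359, minus strand) ends at the same base. Casp9 was at 54.8, 80.4, 49.5, 59.6 and 25.8 CPM against 12.3, 16.5 and 20.02 CPM (log2 fold change 1.75 ± 0.25, edgeR adjusted p = 0.00681), and Cela2a at 1217, 1213, 4064, 2973 and 1565 CPM against 17.3 to 510 CPM. Ctrc was at 43.8, 42.9, 107, 132 and 47.5 CPM against 0.640 to 14.1 CPM. Casp9 was highest in Alb-Cre Stat3f/f 1, Cela2a in Alb-Cre Stat3f/f 2 and Ctrc in Alb-Cre Stat3f/f 3. Whether the counting used strand is not stated in the labels or notes, so reads of the overlap cannot be told apart. Klk1b4, a tissue kallikrein, lies 13606 bases from its paralog Klk1, and its rise of 2.71 ± 0.51 (edgeR adjusted p = 0.0302) is uncertain because reads of near-identical kallikreins may have been shared. Without WT 3, WT 5, WT 6 or any of Alb-Cre Stat3f/f 1, 2, 3 and 5 it was not called. Klk1b4 also passed the filter only with the acinar-rich tumours counted, which favours a positive sign.

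Among immune genes, B cell markers had higher levels in the acinar-rich tumours, although no member was called by edgeR. All 11 tested B cell genes had a positive log2 fold change, with a median of 1.33. For 5 of them every acinar-rich tumour lay above every acinar-poor one, against 2.14% of all tested genes. The summed level of the list was 70.5 to 139 CPM in acinar-rich and 30.3 to 64.4 CPM in acinar-poor tumours. Pax5, the transcription factor of B cell identity, was at 6.87, 14.1, 10.7, 3.86 and 23.1 CPM against 0.227, 0.832 and 3.07 CPM (log2 fold change 2.88 ± 0.68, edgeR adjusted p = 0.111). Bank1, an adaptor of B cell receptor signalling, was at 5.36 to 14.4 CPM against 1.66 to 3.802 CPM. Neither gene overlapped between the classes. Ms4a1 (CD20) did: Alb-Cre Stat3f/f 5 was at 6.15 CPM, above 3 of the acinar-rich tumours. Cd79a did not pass the filter on low counts.

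Against the enzyme share itself, the B cell list had a smaller median, 0.65, and the continuous fit called 0 of the 11 genes. Bank1 had a continuous log2 change of 1.01 ± 0.31 (edgeR adjusted p = 0.0824) and Pax5 one of 1.52 ± 0.79 (edgeR adjusted p = 0.369). The highest Pax5 value was in Alb-Cre Stat3f/f 4 and the lowest of the 5 in Alb-Cre Stat3f/f 3, whose enzyme share was the highest. DESeq2 called 3 of the 11 between classes. Of the 11, 4 passed the filter only with the acinar-rich tumours counted, which favours a positive sign. Jchain, the joining chain of secreted immunoglobulin, showed no such separation, at 41.9, 122, 74.9, 43.9 and 62.2 CPM against 19.6, 121 and 328 CPM.

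**Figure D4:**
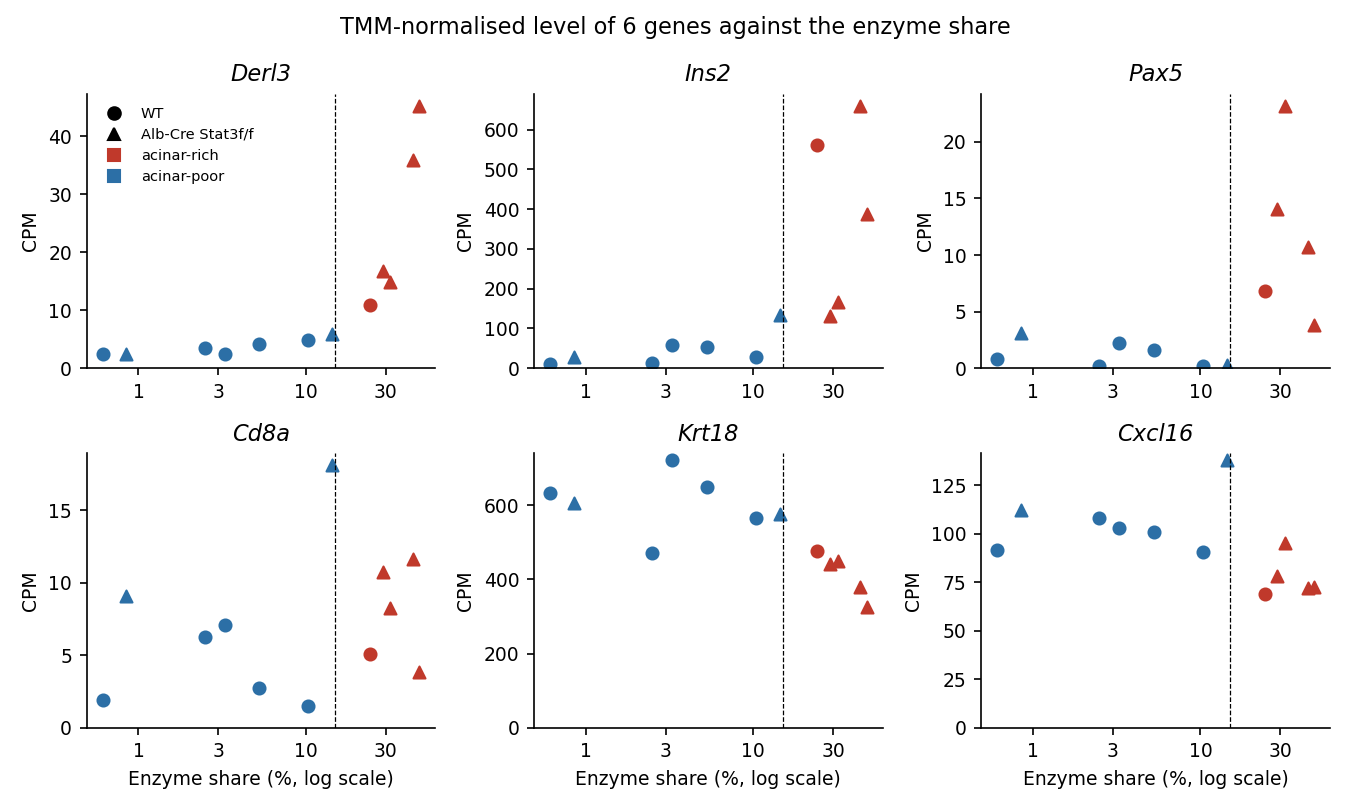
Level of 6 genes (vertical axes, TMM-normalised CPM, from 0) against the enzyme share of each tumour (horizontal axis, percent, log scale), with circles for WT, triangles for Alb-Cre Stat3f/f, red for acinar-rich and blue for acinar-poor tumours. Derl3 climbs to 45.2 CPM at the highest share, Pax5 peaks at 23.1 CPM in Alb-Cre Stat3f/f 4, and the highest Cd8a and Cxcl16 values are both in Alb-Cre Stat3f/f 6, left of the dashed line at 15%.

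T cell and cytotoxic genes were not called by edgeR in either direction, and the summed levels of both lists overlapped. DESeq2 called 0 T cell genes and 1 cytotoxic gene, Ctsw, which it placed lower. Of 15 tested T cell genes 12 had a negative log2 fold change (median −0.29), and of 6 cytotoxic and natural killer genes 4 did (median −0.21). The summed T cell level was 60.0 to 109 CPM in acinar-rich and 44.2 to 158 CPM in acinar-poor tumours. Cd8a was at 5.07, 10.7, 11.7, 3.86 and 8.26 CPM against 1.48, 6.27 and 18.1 CPM, with a log2 fold change of −0.29 and a 95% interval from −1.15 to 0.57. Cd3e, a chain of the T cell receptor complex, was at 4.41 to 8.80 CPM against 1.11 to 13.6 CPM. The signs are those with genotype in the model: the mean of Cd8a was 7.92 CPM in acinar-rich and 6.68 CPM in acinar-poor tumours, and without the genotype term its log2 fold change was 0.24. Zap70, a kinase of T cell receptor signalling, had the most negative value of the list, −1.64 ± 0.62 (edgeR adjusted p = 0.242), and Cd5 had −1.10 ± 0.57. Ctsw, a cathepsin of cytotoxic lymphocytes, was at 5.07 to 13.7 CPM against 5.00 to 26.5 CPM (edgeR adjusted p = 0.133, DESeq2 adjusted p = 0.0402), and the chemokine Ccl5 at 17.8 to 27.8 CPM against 13.9 to 45.2 CPM. For Cd3e, Cd8a, Ctsw and Ccl5 the highest acinar-poor tumour was Alb-Cre Stat3f/f 6.

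Myeloid and antigen presentation genes were not called by edgeR between classes, and DESeq2 called 1, higher, in the macrophage list and 0 in the other lists of this paragraph. The called gene was Lyve1, which is also in the endothelial list and is described below. The median log2 fold change was −0.11 over 17 macrophage genes, 0.38 over 10 monocyte genes, −0.13 over 13 neutrophil genes and −0.15 over 12 dendritic cell genes. Csf1r, the receptor that macrophages need for survival, was at 439, 573, 364, 771 and 680 CPM against 254, 428 and 827 CPM, and its 95% interval ran from −0.58 to 0.35 on the log2 scale. Itgam (CD11b) was at 38.9 to 65.6 CPM against 19.6 to 40.5 CPM and Ccr2, a monocyte chemokine receptor, at 55.1 to 89.6 CPM against 17.5 to 83.4 CPM. Ptprc (CD45), carried by all leukocytes, was at 81.2 to 160 CPM against 57.6 to 161 CPM. Class I presentation, class II presentation and interferon response lists had medians of −0.07, −0.27 and −0.22 over 11, 9 and 18 genes. Tap2, a subunit of the peptide transporter that feeds class I, had the largest value of its list and was the 1 member that separated the classes: it was at 55.4, 110, 167, 56.1 and 61.1 CPM against 7.90, 24.3 and 45.6 CPM (log2 fold change 1.47 ± 0.49, edgeR adjusted p = 0.233). H2-K1, a class I heavy chain, was at 551 to 1000 CPM against 359 to 1033 CPM, Tapbp (tapasin) had −0.48 ± 0.14 and the interferon-induced GTPase Gbp2 −0.68 ± 0.27 on the log2 scale, and the edgeR adjusted p was 0.896, 0.153 and 0.321.

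Lyve1 and Prox1, 2 markers of lymphatic vessels, separated the classes. They were called by DESeq2 (adjusted p = 0.00147 for Lyve1 and 0.0173 for Prox1) but not by edgeR between classes. Lyve1, a hyaluronan receptor of lymphatic endothelium and of some macrophages, was at 32.4, 35.7, 39.4, 72.0 and 43.4 CPM against 8.12, 14.98 and 25.7 CPM (log2 fold change 1.24 ± 0.28, edgeR adjusted p = 0.0966). It was called with the continuous share (edgeR adjusted p = 0.00566). Prox1, the lymphatic transcription factor, was at 10.8, 16.7, 7.47, 14.1 and 8.86 CPM against 2.62, 3.91 and 7.35 CPM (log2 fold change 1.26 ± 0.32, edgeR adjusted p = 0.111). The lowest acinar-rich and highest acinar-poor values of Prox1 nearly touched. Prox1 was not called with the continuous share (log2 change 0.81 ± 0.32, edgeR adjusted p = 0.192). Lyve1 and Prox1 were the 2 of 17 tested endothelial genes with every acinar-rich tumour above every acinar-poor one, against 2.14% of all tested genes. The median of the 17 was 0.27, and Pecam1 (CD31), carried by all endothelium, was at 17.1 to 46.9 CPM against 18.3 to 29.0 CPM. Both Lyve1 and Prox1 can also be made by cells outside lymph vessels, and the source was not tested.

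Fibroblast genes of normal connective tissue had mostly positive values, and edgeR called none of them or of the activated fibroblast genes between classes. Of 15 quiescent fibroblast genes 10 had a positive log2 fold change (median 0.22), and 4 were called with the continuous share and 2 by DESeq2 between classes. Smoc2, a matricellular protein, was at 15.5, 23.4, 17.5, 28.1 and 14.7 CPM against 6.15, 7.87 and 15.8 CPM (edgeR adjusted p = 0.111, and 0.00720 with the continuous share). Igf1, a growth factor made by resident fibroblasts and macrophages, was at 121, 197, 163, 283 and 143 CPM against 48.0, 79.8 and 126 CPM (edgeR adjusted p = 0.120, and 0.00203 with the continuous share). In each gene the overlap came from Alb-Cre Stat3f/f 6, the acinar-poor tumour with the largest enzyme share. Dpt, dermatopontin, was at 30.3 to 87.8 CPM against 3.88 to 32.7 CPM. The 23 genes of activated fibroblasts and matrix had a median of 0.05. Col1a1 was at 1633, 2210, 1867, 2182 and 1448 CPM against 1348, 1497 and 2385 CPM, with a 95% interval from −0.31 to 0.41 on the log2 scale, and Loxl2, a lysyl oxidase, had 0.58 ± 0.20 (edgeR adjusted p = 0.213).

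Of 12 adipocyte genes 10 had a positive value (median 0.88) and none was called. Of the 12, 3 passed the filter only with the acinar-rich tumours counted. Adipoq, adiponectin, was at 4.58, 3.34, 7.24, 5.78 and 0.451 CPM against 0, 1.89 and 9.85 CPM, and Pparg, the adipocyte nuclear receptor, at 8.57 to 27.6 CPM against 5.63 to 16.0 CPM. Liver RNA was not set apart by class: Alb was at 34.7 to 140 CPM against 4.69 to 141 CPM, and 14 hepatocyte genes had a median of 0.17.

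Genes of the tumour epithelium had values in both directions. Of 23 tested genes 14 had a negative log2 fold change (median −0.19, range −1.76 to 2.72), none was called by edgeR, and DESeq2 called 2 higher (Tff2 and Spint2) and 1 lower (Krt18). Tff2, a trefoil peptide of mucous cells, was at 424, 587, 1514, 1897 and 641 CPM against 26.5, 86.0 and 243 CPM, without overlap (log2 fold change 2.72 ± 0.74, edgeR adjusted p = 0.173). Tff2 was called with the continuous share (log2 change 2.93 ± 0.29, edgeR adjusted p = 0.000169), and which cells made it was not tested. Spint2 and Krt18 were not called with the continuous share (edgeR adjusted p = 0.110 and 0.121). Spint2, an inhibitor of serine proteases, was at 14.6 to 37.8 CPM against 3.97 to 14.7 CPM. Gkn1, a gastrokine, had the lowest value, and was at 0 to 3.45 CPM against 0.640 to 6.24 CPM. The keratins were less far from 0. Krt18, a keratin of simple epithelium, was at 477, 442, 380, 326 and 449 CPM against 470, 606 and 721 CPM (log2 fold change −0.48 ± 0.13, edgeR adjusted p = 0.120, DESeq2 adjusted p = 0.0272). Its partner Krt8 was at 72.4, 80.8, 71.4, 63.0 and 55.7 CPM against 81.5, 95.7 and 109 CPM (log2 fold change −0.44 ± 0.13, edgeR adjusted p = 0.142). No Krt8 value overlapped, and for Krt18 only WT 5 reached into the acinar-poor range. Krt7 had −0.35 ± 0.12. Krt19, the keratin most used to mark this carcinoma, did not follow: it was at 646, 556, 573, 546 and 486 CPM against 524, 585 and 656 CPM, with a 95% interval from −0.19 to 0.22 on the log2 scale.

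Msln (mesothelin), made by pancreatic carcinoma and mesothelium, was at 98.7, 106, 92.4, 80.3 and 90.3 CPM against 104, 143 and 252 CPM (log2 fold change −0.52 ± 0.17, edgeR adjusted p = 0.190), and fell with the continuous share (log2 change −0.54 ± 0.09, edgeR adjusted p = 0.00154). Normal duct genes, whose products line the ducts that acini drain into, had a median of −0.13 over 14 genes, so they were not higher with the acinar genes. Cell cycle genes had a median of 0.10 over 29 and hypoxia and glycolysis genes one of 0.00 over 23, with none called. Ccna2 (cyclin A2) separated the classes, at 44.9 to 53.9 CPM against 24.3 to 42.1 CPM, without a call (log2 fold change 0.41 ± 0.14, edgeR adjusted p = 0.194), and Mki67 overlapped at 80.8 to 141 CPM against 73.0 to 135 CPM. Stat3 was at 202 to 302 CPM against 232 to 276 CPM (95% interval −0.27 to 0.17 on the log2 scale). Its deletion is aimed at hepatocytes, so its level here checks no genotype label.

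A cathepsin and a chemokine fell in the acinar-rich tumours. Ctsa (cathepsin A), a lysosomal carboxypeptidase, was at 6.70, 8.98, 6.30, 10.1 and 8.71 CPM against 12.6, 15.4 and 19.6 CPM, with no overlap (log2 fold change −1.06 ± 0.20, edgeR adjusted p = 0.0220). The call was lost without WT 5, Alb-Cre Stat3f/f 2 or Alb-Cre Stat3f/f 5. Cxcl16, a chemokine that draws CXCR6-positive T cells, was at 69.0, 78.1, 72.1, 72.4 and 95.2 CPM against 90.3, 103 and 138 CPM (log2 fold change −0.60 ± 0.12, edgeR adjusted p = 0.0276). Only Alb-Cre Stat3f/f 4 overlapped, and the Cxcl16 call held in 4 of the 12 fits that left out a tumour. Neither gene was called with the continuous share (edgeR adjusted p = 0.102 and 0.207).

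The difference between classes was then compared across host genotypes. The term for class by genotype called 0 of 13077 genes by edgeR, with 561 at an unadjusted p under 0.05, in a design with 1 acinar-rich WT tumour and 2 acinar-poor Alb-Cre Stat3f/f tumours. Within genotype, Nucb2 had a log2 fold change of 1.42 ± 0.20 among Alb-Cre Stat3f/f hosts and 0.84 ± 0.18 among WT hosts, Derl3 2.75 ± 0.62 and 1.64 ± 0.46, Pax5 2.97 ± 1.00 and 2.76 ± 0.84, and Ctsa −1.005 ± 0.29 and −1.15 ± 0.34. The WT values set 1 acinar-rich tumour, WT 5, against 5 others, so they hold no spread of the acinar-rich class. The class also bore on the comparison of genotypes: 387 genes were called for genotype without the class as a term and 125 with it (112 with higher and 13 with lower levels where the host was Alb-Cre Stat3f/f), 116 of them in both, and 0 genes were called for class and genotype at once.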

How the data were processed

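The values are counts per gene symbol, which the authors deposited without normalisation (all are whole, and library totals differ). Per the labels' protocols, RNA was isolated with an RNeasy FFPE kit and libraries were made with a QuantSeq 3' FWD kit. The submitters' processing notes name STAR and mm10. For versions, annotation, counting tool, strand setting and molecular identifiers, the sources used here give nothing. Of 24982 rows, 26 with a date number for a symbol were left out; 24420 of 24956 symbols (97.9%) matched 1 GENCODE M21 gene. Libraries were mapped to tumours by the number that starts each sample description.

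Genes were kept by filterByExpr with the class as group (minimum count 10, minimum total 15), scaled by TMM and fitted with the class and the genotype by the robust quasi-likelihood test of edgeR 4.0.16 in R 4.3.3, two-sided, with Benjamini-Hochberg adjustment over 13077 genes. Fold changes adjust for genotype and can differ from the ratio of class means. Each SE was derived from the F statistic of the test. The 95% intervals are a normal approximation from that SE, so they are approximate and can be too narrow. DESeq2 1.42.0 was an alternative. The continuous term is the log2 enzyme share, scaled to the 10.7-fold difference between the classes' mean shares. On simulated counts for this comparison (12969 genes), the test recovered 22.4% of 67 genes changed 1.5-fold, 68.7% of 67 changed 2-fold and 98.5% of 66 changed 3-fold, with 5 false calls. The changed genes had a mean of at least 5 CPM and the same fold in every acinar-rich tumour, without a genotype effect. These rates do not carry over to genes that vary with acinar RNA within a class. The 25 tested enzyme genes had a median log2 fold change of 3.03, and none was called.

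The classes, members and lists were chosen with earlier results of these data known. Named genes are up to 15 called genes in each direction with at least 5 CPM (enzymes and predicted genes left out), up to 4 called members of a list, or 2 where none was called, and 28 genes given whatever their values; the text names part of them, and 1 withheld gene is not reported here. Cela2a, Ctrb1, Gatm, Gkn1, Gp2, H2-K1, Krt7, Ms4a1, Pax5, Ptprn2, Spint2, Srpr, Tff2 and Zg16 were added after their values were seen. Alternatives were the filter, scaling, tool, class limit, genotype term, single genotypes, the replicate number as a block, and leaving out each tumour.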

Additional observations from a re-analysis of the deposited data

Results flagged for a closer look

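In 15 of 232 sets of values (6.47%), each a named gene or list within 1 class, the highest or lowest tumour lay far from the others. Chance flags about 1 in 20 sets. In the acinar-poor class, Alb-Cre Stat3f/f 6 was set apart as highest for Ins2 (133 CPM, others 10.3 to 57.4), Klk1b4 (3.93 CPM, others 0.118 to 1.48), Lrrc75b (4.69 CPM, others 0.375 to 1.80) and Smoc2 (15.8 CPM, others 6.15 to 8.86). This tumour has the largest enzyme share of its class. Alb-Cre Stat3f/f 5 was set apart as highest for Snord55 (2.43 CPM) and Ms4a1 (6.15 CPM) and as lowest for Pparg (5.63 CPM). WT 3 was highest for Slc25a35 (1.62 CPM), WT 2 for Adipoq (9.85 CPM) and WT 6 for Msln (252 CPM), and WT 6 was lowest for the summed ER chaperone list (4443 CPM, others 5222 to 5787). In the acinar-rich class, Alb-Cre Stat3f/f 3 was highest for Lyve1 (72.0 CPM, others 32.4 to 43.4), Alb-Cre Stat3f/f 2 for Spint2 (37.8 CPM), Alb-Cre Stat3f/f 4 for Gkn1 (3.45 CPM) and WT 5 for Loxl2 (161 CPM, others 126 to 135). The rows with a date number in place of a symbol, used in no comparison, held up to 0.166% of a library's counts.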

How the results depend on the processing

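Against 26 genes higher and 3 lower, DESeq2 called 279 and 58, no filter 59 and 8, a filter of 10 CPM in 5 tumours 16 higher, no genotype term 466 and 187, a class limit of 10% 16 and 4 (1 of them shared), the continuous share 290 and 76, Alb-Cre Stat3f/f tumours alone 11 and 1, and WT tumours alone (edgeR) 4 and 0, with 905 at an unadjusted p under 0.05. Leaving out 1 tumour gave 0 to 101 higher and 0 to 47 lower. Some settings were added after seeing the data: without WT 1 and Alb-Cre Stat3f/f 6, the tumours at 10 to 15%, 84 and 10 were called, and the continuous share without the 2 tumours under 1% called 107 and 6. A class by genotype difference was called for 1 gene with the 10% limit, the continuous share, the replicate block and without the tumours at 10 to 15%, and for 0 genes otherwise. RLE factors and scaling without acinar genes called 27 and 26 higher. Replicate numbers do not pair the samples (correlations of deviations −0.498 to 0.125; 1 of 12 samples correlated best with its own number), and the replicate block called 11 higher and 1 lower, 9 of them shared with the 29. The cause of these shifts was not tested.

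All 60 reversals among the named genes were in 14 genes that were not called. The log2 fold changes were, without the genotype term, Cd3e 0.0789, Cd8a 0.24, Csf1r 0.20, Jchain −1.09, Krt19 −0.0546, Ptprc 0.34 and H2-K1 0.31. In WT tumours alone they were Alb −1.01, Ccl5 0.16, Cd3e 0.0519, Cd8a 0.39, Col1a1 −0.0410, Csf1r 0.15, Hspa5 −0.0769, Jchain −2.18, Ptprc 0.0560 and H2-K1 0.18. In Alb-Cre Stat3f/f tumours alone Krt19 was −0.0567 and Mki67 −0.23. With the continuous share Jchain was −0.26, Ptprc 0.0404 and H2-K1 0.0049, and without the tumours under 1% Alb −0.14, Hspa5 −0.12, Jchain −2.75, Mki67 −0.16 and Stat3 0.0213. With the replicate block Hspa5 was −0.0711, Jchain −0.53 and Krt19 −0.0284. With the 10% limit Adipoq was −0.0304, Alb −0.18, Hspa5 −0.0232, Jchain −1.64 and Mki67 −0.0331. Without the tumours at 10 to 15% Alb was −0.23, Cd8a 0.0376, Hspa5 −0.0074, Jchain −0.91 and Ptprc 0.0140. Leaving out 1 tumour gave Alb −0.24 to 1.42, Cd8a −0.66 to 0.14, Col1a1 −0.13 to 0.23, Csf1r −0.27 to 0.0489, H2-K1 −0.23 to 0.0108, Hspa5 −0.0064 to 0.14, Jchain −0.80 to 1.13, Krt19 −0.0606 to 0.0459, Mki67 −0.23 to 0.15, Ptprc −0.12 to 0.0602 and Stat3 −0.10 to 0.0069. The depth left outside the enzyme genes limits what can be said of genes near 1 CPM.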
